A study of Mus musculus with 12 samples.

Results

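The TCRα repertoire of newly developed thymic regulatory T cells (Treg) was compared between mice that cannot make interleukin-2 (Il2null) and wild-type (wt) mice. The comparison used the 8 of the 12 libraries of the series whose genotype label is wt or Il2null, 4 of each, and not the 4 Il15null libraries. Each library came from 100000 thymocytes that were CD4+CD8-Thy1.1+GFP+, sorted from 1 mouse aged 3 weeks, and both sexes were included. All mice, wt included, were B6 and carried Rag2-Gfp, Foxp3-Thy1a, the Kaa Tcrb transgene and Tcra+/null. The Il2null mice carried in addition an inactive Il2 gene throughout the body, so that neither the Treg nor any other cell could make the cytokine. The Foxp3-Thy1a allele puts Thy1.1 on cells that express Foxp3, and GFP driven by the Rag2 locus stays bright only in thymocytes that have recently finished rearranging their receptor. All cells thus shared 1 transgenic TCRβ chain and had 1 Tcra allele that could give a functional chain, and all values were measured with that TCRβ alone. The tables hold only Tcra sequences, so neither Il2, Foxp3 nor Rag2 could be checked in them.

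A TCRα chain is made in the thymus by joining 1 of many TRAV segments to 1 of many TRAJ segments, with bases trimmed and added at the junction. The joined region, the CDR3, is the part of the chain that contacts the peptide held by an MHC molecule, and it runs from a conserved cysteine of the V segment to a conserved phenylalanine of the J segment. Treg are selected in the thymus on self-peptides, and interleukin-2 is the main cytokine for the last steps of their development. In the mouse, the central part of the V locus has been copied, so that many TRAV segments exist in near-identical versions marked D or N.

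The sequences on which the results turn are those of the TRAV4 family, whose germline 3′ end encodes glutamate as the fourth residue of the CDR3, and of TRAJ37. The following V segment ends, from the conserved cysteine codon to the last germline base, have the codon of CDR3 position 4 in capitals (GENCODE annotation of the GRCm38 genome, all on the plus strand of chromosome 14).
TRAV4D-3, chr14:52899969-52900470: tgtgctgctGAGg
TRAV4N-3, chr14:53210906-53211407: tgtgctgctGAGg
TRAV4D-4, chr14:52990866-52991389: tgtgctgctGAGg
TRAV6D-7, chr14:53007612-53008098: tgtgctctgGGTga
TRAV12D-2, chr14:52915799-52916426: tgtgctttgAGTga
TRAV7-2, chr14:53390635-53391142: tgtgcagcaAGC
GAG encodes glutamate, GGT glycine, and AGT and AGC serine. The 3 TRAV4 segments could not be told apart by these ends. The whole of 2 J segments that fell in the comparison is given next.
TRAJ37, chr14:54181518-54181577: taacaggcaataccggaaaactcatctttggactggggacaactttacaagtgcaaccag
TRAJ32, chr14:54186101-54186166: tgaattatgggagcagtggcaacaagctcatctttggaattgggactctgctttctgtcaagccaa
The most common nucleotide sequence of each of 4 clonotypes is shown with the same codon in capitals, to let the V and J parts be read against the germline.
TRAV4D-3 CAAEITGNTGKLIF TRAJ37: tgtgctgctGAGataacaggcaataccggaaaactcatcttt
TRAV4D-3 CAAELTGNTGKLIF TRAJ37: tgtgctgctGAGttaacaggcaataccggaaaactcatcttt
TRAV4D-4 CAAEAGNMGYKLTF TRAJ9: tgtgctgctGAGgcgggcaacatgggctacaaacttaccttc
TRAV6D-7 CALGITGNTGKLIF TRAJ37: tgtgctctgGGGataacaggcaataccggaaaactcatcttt
The first of these made up 86.2% of the unique molecular identifiers (UMIs) of its clonotype. The deposited V and J positions assign 12 of its bases to V, 30 to J and 0 between them. The base a that follows GAG, assigned there to J, lies before the first base of TRAJ37 as printed above.

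A UMI is a random tag that marks 1 cDNA molecule, and all values are UMI counts of in-frame sequences without a stop codon. The wt libraries held 24811, 22890, 15427 and 16703 such UMIs for replicates 1 to 4, and the Il2null libraries 12741, 17626, 14557 and 7293. The 8 libraries held 16684 different clonotypes, a clonotype being 1 TRAV, 1 CDR3 amino acid sequence and 1 TRAJ, in 2193 V-J pairs made from 104 TRAV and 43 TRAJ. A sequence absent from a library could have been present at up to 0.0121% to 0.0411% of its UMIs, which is 3 UMIs and covers counting error only. Receptors of other αβ T cells that the gate could hold were rare. The invariant NKT chain (TRAV11 with TRAJ18) had 5 to 17 UMIs in each wt and 1 to 9 in each Il2null library, and the MAIT chain (TRAV1 with TRAJ33) 5 to 28 and 6 to 19.

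Some libraries shared more nucleotide sequences than others. A sequence with 8 or more bases between its V and J parts is seldom made in the same form by recombination in several mice, so such sequences were counted for each pair of libraries. Pairs were divided at 12 such sequences, a limit placed on these same counts, so the gap between the 2 sets follows from it. Between 13 and 63 were common to each of 8 library pairs, against 1 to 11 (median 5) in the other 20 pairs. Of these 20, wt 2 with wt 3 held 11, close to the limit. The counts were not scaled to the long junctions of each library, which ranged from 76 to 227. The 8 pairs were wt 1 with wt 2 (63), wt 3 with wt 4 (54), wt 2 with Il2null 1 (50), Il2null 2 with 3 (44), wt 3 with Il2null 1 (22), wt 4 with Il2null 1 (17), Il2null 3 with 4 (16) and wt 4 with Il2null 4 (13). Sequences found in that pair alone made up 24.4% of the UMIs of Il2null 1 in its pair with wt 2, and 20.6% of those of wt 2 in its pair with wt 1. When only sequences with at least 3 UMIs in a library were kept, the long junctions in common fell to between 0 and 3 in all pairs but wt 3 with wt 4, which kept 17. The tables hold no UMI sequences, the cause was not tested, and the 8 libraries cannot be taken as fully independent. Results are therefore also given from sequences with at least 3 UMIs, and without Il2null replicates 1 and 4, the libraries of that genotype that shared with wt libraries. The set without them keeps Il2null 2 and 3, which shared 44 long junctions, and the linked wt pairs. Its libraries are thus not independent either. The limit of 3 UMIs was set before depths were made equal, so it lies at 0.0121% of the UMIs of the deepest wt library and at 0.0411% of those of the shallowest Il2null library and removes more from the shallower ones.

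**Figure D1:**
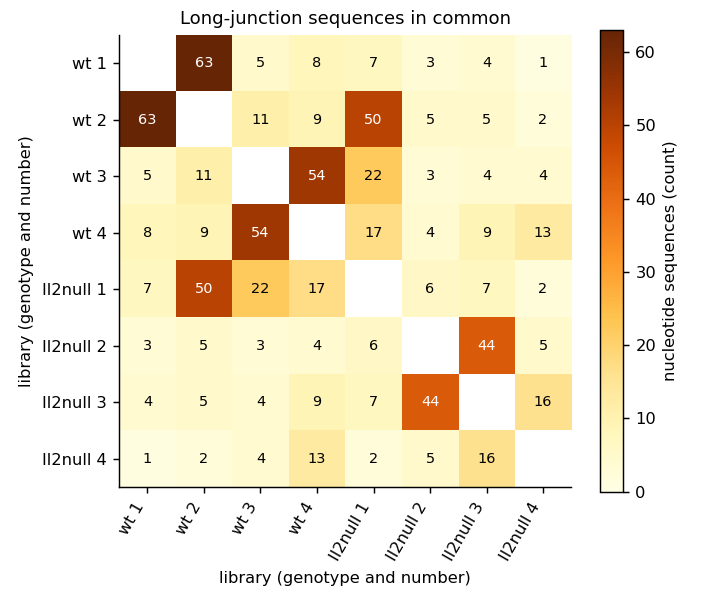
Number of nucleotide sequences with 8 or more bases between V and J that each pair of the 8 libraries had in common; rows and columns are the libraries. Pairs with at least 12, the limit used in the text, include wt 1 with wt 2 (63) and wt 2 with Il2null 1 (50). The other 20 pairs held 1 to 11.

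The largest V segment of the repertoire, TRAV4D-3, was used less often by Il2null Treg. It took 17.9%, 17.7%, 21.4% and 18.1% of the UMIs of the wt libraries, and 13.6%, 10.5%, 14.2% and 13.5% of those of the Il2null libraries. Each Il2null value thus lay below each wt value. The means were 18.8% ± 1.75 and 12.9% ± 1.65 (SD, n = 4 each), and the log2 fold change was -0.54 ± 0.106 (SE; edgeR quasi-likelihood test over the 68 TRAV tested, adjusted p = 0.00137). In these bulk samples, fewer cells with a segment and less Tcra RNA per such cell cannot be told apart. TRAV4D-3 was the 1 segment of 68 past the threshold of 0.05, or 1.47%, and 16 had an unadjusted p under 0.05. The log2 fold change was -0.63 (adjusted p = 0.00101) from sequences with at least 3 UMIs and -0.60 (adjusted p = 0.0125) without Il2null 1 and 4. It was -0.20 (adjusted p = 0.159) when each clonotype was counted once, whatever its UMIs, and -0.54 with limma (adjusted p = 0.148), and neither of these passed.

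The other large members of the TRAV4 family were lower by less. TRAV4N-3 went from 8.46% ± 0.567 in wt to 6.78% ± 0.917 in Il2null (adjusted p = 0.115, edgeR) and TRAV4D-4 from 7.20% ± 0.484 to 6.31% ± 0.337 (adjusted p = 0.440, edgeR), and for both the groups overlapped. In all, the TRAV4 family fell from 35.4% of UMIs in wt to 27.2% in Il2null, and its groups did not overlap. The groups of 5 of the 68 TRAV did not overlap (7.35%), 3 of them higher (4.41%) and 2 lower (2.94%) in Il2null. Besides TRAV4D-3 these were TRAV12D-2 (1.95% in wt and 1.29% in Il2null, adjusted p = 0.102, edgeR), TRAV7-2 (5.59% and 7.22%, adjusted p = 0.112), TRAV6-7/DV9 (0.0730% and 0.151%, adjusted p = 0.197) and TRAV6N-6 (0.536% and 0.657%, adjusted p = 0.440). TRAV7-2 had 5.34%, 5.81%, 5.30% and 5.91% in the wt and 6.05%, 6.86%, 6.97% and 9.01% in the Il2null libraries, where Il2null 4 stood highest. Of the remaining large segments, TRAV7-3 took 5.90% ± 0.929 in wt and 6.64% ± 0.859 in Il2null, and TRAV12N-3 5.80% ± 0.964 and 4.73% ± 1.06, with overlapping groups for both.

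**Figure D2:**
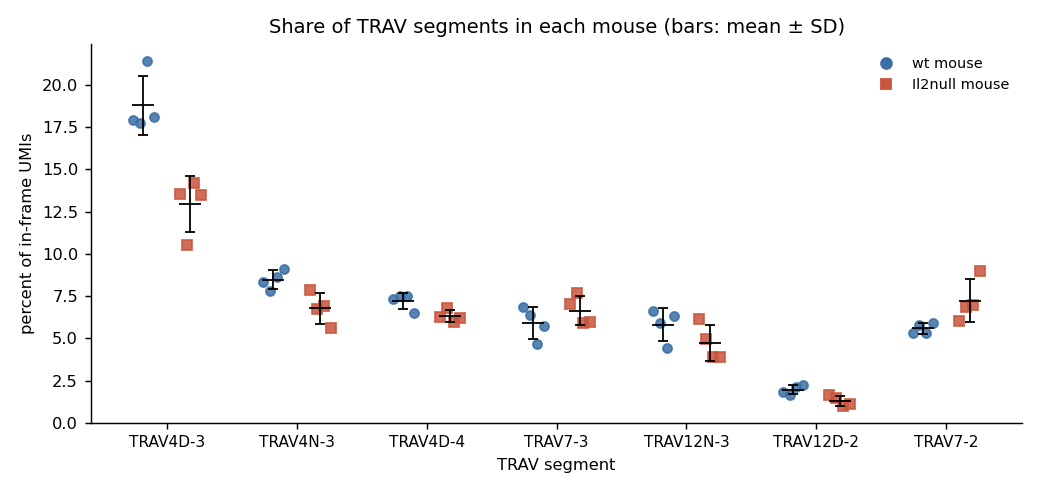
Share of in-frame UMIs (%) taken by the larger of the named TRAV segments in each library, with points for the 4 wt and 4 Il2null mice and bars for the mean and SD. TRAV4D-3 sits at 17.7% to 21.4% in wt and 10.5% to 14.2% in Il2null.

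Because D and N copies may share reads, the copies were also summed under their common name. Of 44 merged segments, 8 passed the threshold (18.2%), 6 higher and 2 lower in Il2null. Merged TRAV4-3 fell from 27.51% to 19.96% (log2 fold change -0.46, adjusted p = 4.05e-05, edgeR). Merged TRAV10 rose from 3.35% to 4.82% (log2 fold change 0.53, adjusted p = 0.0276, edgeR), and the groups overlapped in neither of these segments. Of the other 6, TRAV7-6, TRAV1, TRAV8-2, TRAV9-2 and TRAV6-2 rose and TRAV13-4/DV7 fell, with overlapping groups. TRAV13-4/DV7 had 23, 55, 33 and 36 UMIs in wt and 14, 6, 13 and 8 in Il2null. It met the minimum of 20 UMIs through wt alone, so that its counts had to be lower in Il2null. Shares of 1 repertoire sum to a fixed total, so falls and rises of segments are not independent of each other. How far this bears on the rises was not tested. The median log2 fold change over the 68 TRAV was 0.26, and 0.01 when the libraries were scaled by TMM. Under TMM 3 segments passed, TRAV4D-3, TRAV12D-2 and TRAV4N-3, each of them lower.

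The fall within TRAV4 was accompanied by a change in which CDR3 these chains carried, and glutamate at CDR3 position 4, the residue of the germline GAG codon shown above, was lower in Il2null. This position was chosen after the values were seen, so no p is given for it. It was glutamate in 13.1%, 12.6%, 14.6% and 12.5% of the UMIs of the wt libraries, and in 7.72%, 8.32%, 9.27% and 8.21% of those of the Il2null libraries. The means of 13.2% ± 0.956 and 8.38% ± 0.645 differed by more than the spread between mice, and the groups did not overlap. Of the 20 residues at position 4, 6 had groups that did not overlap (30%): cysteine, aspartate, glutamate and proline were lower in Il2null, and methionine and serine higher. Serine went from 28.9% to 32.0%.

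The share over all chains also moves with the share of the TRAV4 family, so it was next taken inside the family. Among TRAV4 chains, glutamate held position 4 in 32.4%, 31.5%, 33.3% and 31.5% of wt UMIs and in 22.2%, 23.4%, 24.2% and 24.8% of Il2null UMIs. There, 4 of 20 residues had groups that did not overlap (20%), with glutamate lower and glycine (9.33% in wt, 11.7% in Il2null), arginine (1.15%, 2.64%) and serine (7.99%, 10.1%) higher. Among chains with any other TRAV, glutamate at this position took 2.83%, 2.87%, 2.79% and 2.57% in wt and 1.93%, 3.23%, 3.34% and 2.22% in Il2null, and the groups overlapped. As a share of all UMIs, TRAV4 chains with glutamate there fell from 11.4% ± 1.00 to 6.43% ± 0.408, and TRAV4 chains with another residue from 23.98% ± 1.17 to 20.8% ± 1.33, each without overlap.

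Each large member of the family differed in the same direction. Within TRAV4D-3 the share with glutamate was 30.4%, 28.9%, 31.0% and 30.7% in wt and 18.9%, 19.7%, 20.8% and 22.8% in Il2null. Within TRAV4N-3 it was 23.7%, 25.8%, 26.6% and 25.0% against 19.8%, 18.9%, 16.8% and 15.9%. Within TRAV4D-4, where the residue was most common, it was 46.3%, 43.5%, 47.7% and 44.1% against 33.0%, 34.3%, 42.6% and 37.9%. In none of the 3 segments did the groups overlap, the closest values being 43.5% and 42.6% in TRAV4D-4.

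**Figure D3:**
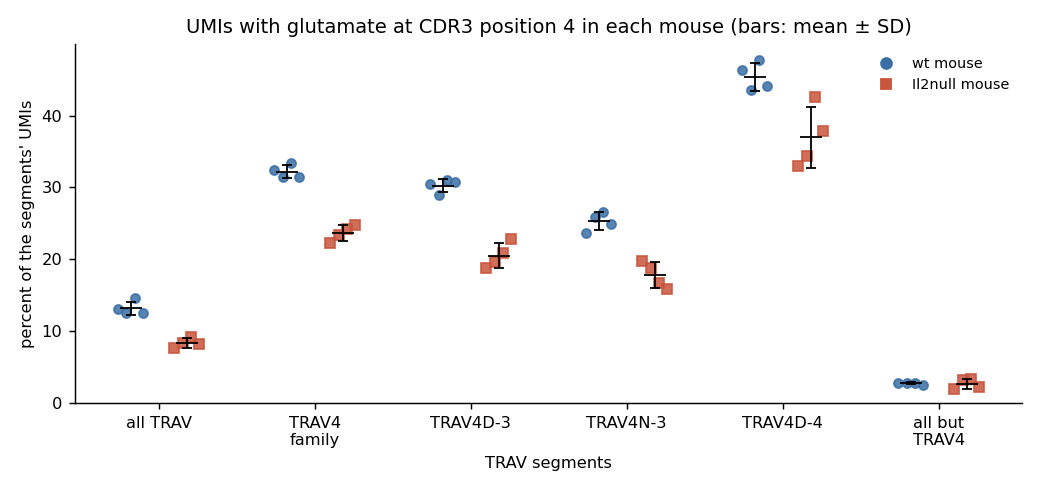
Share of UMIs (%) with glutamate at CDR3 position 4 in each library, for all chains, the TRAV4 family, its 3 large members and all other TRAV; points are mice and bars the mean and SD. The Il2null points lie below the wt points in all but the chains with another TRAV.

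In most of these chains the V segment encoded the glutamate. TRAV4 chains in which all 3 bases of the codon at position 4 were V-encoded glutamate made up 28.5% ± 0.648 of the family in wt and 20.6% ± 1.38 in Il2null. Glutamate with at least 1 base from the junction took 3.454% and 2.802%, and J-encoded glutamate 0.259% and 0.243%. With any residue at position 4, codons wholly from V also fell, from 34.2% of the family in wt to 26.2% in Il2null. Codons with a junction base rose from 47.8% to 53.1%, and those from J from 18.0% to 20.6%. The lower share of V-encoded glutamate thus went with a lower share of codons wholly from V. How much of it was specific to glutamate was not tested. By J segment, 22 TRAJ had at least 20 TRAV4 UMIs in every library, and the glutamate share was lower in Il2null for 16 of them and higher for 6. The 4 TRAJ whose groups did not overlap were all lower, namely TRAJ37 (64.2% in wt, 43.8% in Il2null), TRAJ31 (40.8%, 21.8%), TRAJ27 (37.3%, 19.7%) and TRAJ17 (4.62%, 2.02%). With TRAJ37 left out, the family still went from 28.7% ± 0.279 to 22.3% ± 0.453, without overlap. Within TRAV4D-3 the difference was smaller without TRAJ37, at 22.7% ± 1.37 in wt and 17.0% ± 0.912 in Il2null, than with it (30.3% ± 0.944 and 20.5% ± 1.70).

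Counting each clonotype once, whatever its UMIs, left a smaller difference. Glutamate then held position 4 in 30.5% of TRAV4 clonotypes in wt and 26.2% in Il2null, without overlap, and in 42.4% and 40.5% within TRAV4D-4, where the groups overlapped. From sequences with at least 3 UMIs the TRAV4 shares were 32.6% and 22.8%. Without Il2null 1 and 4 they were 32.2% and 23.8%, and both times the groups did not overlap.

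Among the J segments, TRAJ37 and TRAJ32 fell in Il2null, and 4 of the 39 TRAJ tested passed the threshold (10.3%), 3 of them lower (7.69%) and 1 higher (2.56%). TRAJ37 took 5.95%, 5.67%, 7.03% and 5.69% of the wt and 4.92%, 4.36%, 4.95% and 4.48% of the Il2null UMIs (log2 fold change -0.38 ± 0.107, adjusted p = 0.0101, edgeR). TRAJ32 took 2.14%, 2.16%, 2.68% and 2.40% against 1.99%, 1.65%, 1.63% and 1.65% (log2 fold change -0.44 ± 0.116, adjusted p = 0.00830, edgeR). In both, each Il2null library was below each wt library. The mean share of TRAJ32 fell by 0.618 percentage points, and its pairs with TRAV4D-3 and TRAV4N-3 fell by 0.452 and 0.167. TRAJ22 also fell, from 6.04% ± 1.12 to 4.75% ± 0.559 (adjusted p = 0.0202, edgeR), and TRAJ4 rose from 2.07% ± 0.187 to 2.59% ± 0.424 (adjusted p = 0.0260, edgeR), but the groups of both overlapped.

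These J differences were modest and depended on the settings. TRAJ37 passed in 13, TRAJ32 in 12, TRAJ22 in 9 and TRAJ4 in 6 of 19 alternatives, with the same direction in each. From sequences with at least 3 UMIs none of the 4 passed (adjusted p = 0.0592 for TRAJ37, TRAJ32 and TRAJ22, and 0.203 for TRAJ4), and without Il2null 1 and 4 all of them did. With each clonotype counted once none passed, and the log2 fold changes were -0.09 for TRAJ37, -0.22 for TRAJ32, -0.02 for TRAJ22 and 0.28 for TRAJ4 (adjusted p = 0.384 to 0.983, edgeR). With the replicate numbers as a block, which are not known to pair mice, TRAJ37 alone passed (adjusted p = 0.0489, edgeR). The groups of 4 TRAJ did not overlap, or 10.3%, again 3 lower (7.69%) and 1 higher (2.56%). Beside TRAJ37 and TRAJ32 these were TRAJ24, at 1.05% ± 0.0827 in wt and 0.714% ± 0.0773 in Il2null (adjusted p = 0.0518, edgeR), and TRAJ21, at 4.34% ± 0.123 and 5.02% ± 0.339 (adjusted p = 0.195, edgeR). The most used J segment, TRAJ31, took 8.85% ± 1.34 in wt and 9.34% ± 1.25 in Il2null, and TRAJ12, TRAJ9 and TRAJ23 took 6.37% to 8.21% in wt and 6.18% to 8.77% in Il2null, with none of these past the threshold.

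**Figure D4:**
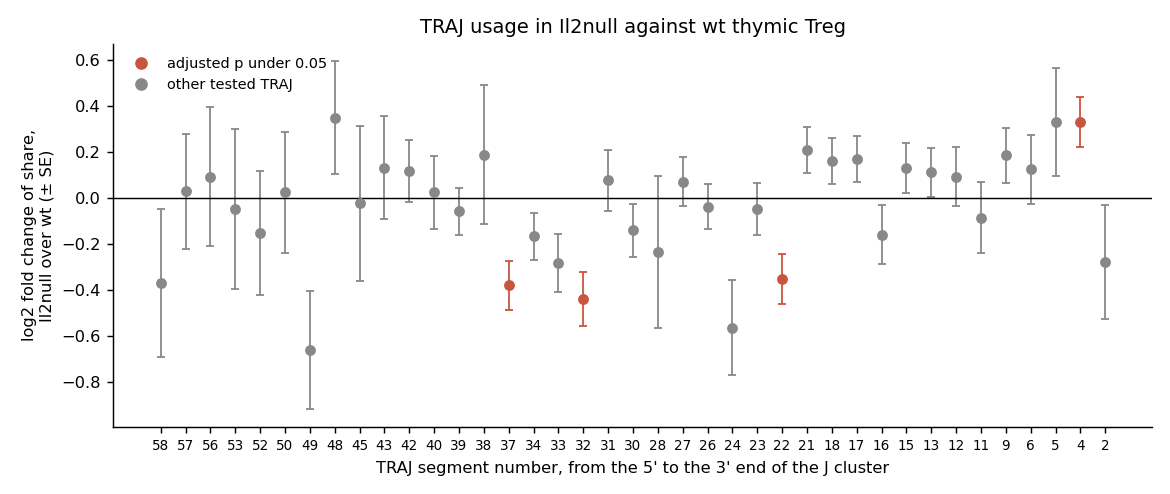
Log2 fold change of the share of each of the 39 tested TRAJ segments, Il2null over wt, with bars for the SE. Segments run from the 5′ to the 3′ end of the J cluster. Coloured points, among them TRAJ37 (-0.38) and TRAJ32 (-0.44), have an adjusted p under 0.05 (edgeR), and grey points do not.

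The fall of TRAJ37 lay in 1 V-J pair, that with TRAV4D-3. TRAV4D-3 with TRAJ37 took 3.13%, 2.71%, 4.09% and 2.69% of wt UMIs and 1.47%, 1.17%, 1.70% and 1.77% of Il2null UMIs, a log2 fold change of -1.05 ± 0.204 (adjusted p = 0.0171, edgeR). It was 1 of 2 pairs past the threshold among the 299 tested (0.669%), 1 in each direction (0.334%), while 47 had an unadjusted p under 0.05. The other was TRAV6D-7 with TRAJ37, which moved the opposite way. It had 3, 7, 0 and 8 UMIs in wt and 20, 20, 57 and 14 in Il2null, or 0.0226% ± 0.0210 against 0.213% ± 0.123 (log2 fold change 3.20 ± 0.673, adjusted p = 0.0210, edgeR). This second pair entered the test through its Il2null counts alone, so that it had to be higher there. Neither pair passed from sequences with at least 3 UMIs (adjusted p = 0.0722 for both, edgeR), without Il2null 1 and 4 (0.0849 for both), or with the replicate block (0.0556 for TRAV4D-3 and 0.140 for TRAV6D-7), and their log2 fold changes there were -1.05 to -1.14 and 3.16 to 3.58. With each clonotype counted once, the change of TRAV4D-3 with TRAJ37 was -0.17 (adjusted p = 0.552, edgeR), and TRAV6D-7 with TRAJ37 had too few clonotypes to be tested.

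TRAV4D-3 was lower with most of its J partners. Over the J segments, its share of all UMIs was lower in Il2null with 33 and higher with 8. The whole segment fell by 5.84 percentage points and its pair with TRAJ37 fell by 1.63, which is 27.9% of that fall. Among its other large pairs, those with TRAJ31 (log2 fold change -0.48), TRAJ32 (-0.46) and TRAJ39 (-0.56) had groups without overlap and that with TRAJ34 (-0.48) overlapped, with adjusted p of 0.193 to 0.314 (edgeR); these 4 were chosen after the values were seen. Within TRAV4D-3 chains, TRAJ37 was the J segment of 16.7% ± 1.98 in wt and 11.8% ± 1.04 in Il2null, while TRAJ31 (11.8% and 12.3%) and TRAJ32 (8.86% and 9.43%) took similar parts.

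The groups of 35 of the 299 pairs did not overlap (11.7%), 11 of them higher (3.68%) and 24 lower (8.03%) in Il2null. Of these, 2 passed the filter through wt alone and 1, TRAV6D-7 with TRAJ37, through Il2null alone. The 2 were TRAV16N with TRAJ22 and TRAV7D-3 with TRAJ33, whose counts thus had to be lower in Il2null. Beyond those past the threshold, the pairs with the largest change among them were TRAV16N with TRAJ22 (log2 fold change -2.11), TRAV4N-3 with TRAJ32 (-2.07), TRAV7D-6 with TRAJ31 (1.76), TRAV4D-3 with TRAJ57 (-1.70), TRAV14-3 with TRAJ31 (-1.46) and TRAV7D-3 with TRAJ33 (-1.40). Their adjusted p lay between 0.154 and 0.218 (edgeR), and none passed. TRAV4N-3 with TRAJ32 was seen 25, 20, 69 and 37 times in wt and 11, 11, 4 and 1 times in Il2null, so that its lowest wt share, 0.0874%, was close to its highest Il2null share, 0.0863%.

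**Figure D5:**
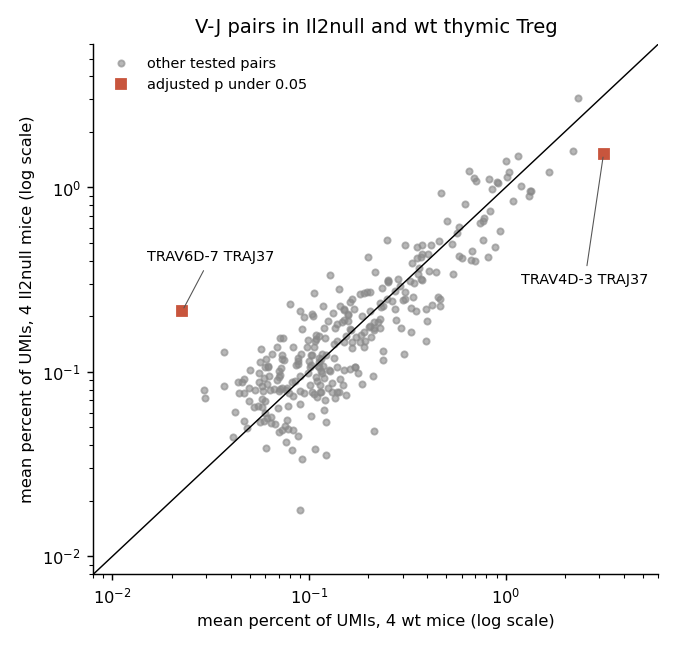
Mean share of UMIs (%, log axes) of the 299 tested V-J pairs in wt (horizontal) and Il2null (vertical) mice. The line marks equal shares, and a pair below the range of the axes is not drawn. The pairs TRAV4D-3 TRAJ37 (log2 fold change -1.05) and TRAV6D-7 TRAJ37 (3.20) are those past an adjusted p of 0.05 (edgeR).

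At the level of single clonotypes, 452 of 16684 could be tested, and these held 42.8% of the UMIs. With edgeR 0 passed the threshold (0%), where 49 had an unadjusted p under 0.05, 0 passed with limma and 6 did with DESeq2. The groups of 37 did not overlap (8.19%), 11 higher (2.43%) and 26 lower (5.75%) in Il2null, and 10 of these 37 had passed the filter through wt alone. The smallest p belonged to TRAV4D-3 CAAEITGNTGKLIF TRAJ37, the GAG-bearing sequence printed above. It made up 1.08%, 0.965%, 1.82% and 1.01% of wt UMIs and 0.220%, 0.204%, 0.419% and 0.590% of Il2null UMIs, without overlap (log2 fold change -1.78 ± 0.373, adjusted p = 0.0804, edgeR). With D and N copies merged, the log2 fold change was -1.79 with an adjusted p of 0.0226 (edgeR). Merging left the mean shares of this clonotype as they were, at 1.22% in wt and 0.358% in Il2null. What changed was the set fitted and adjusted over, then 492 clonotypes in place of 452.

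The other clonotypes printed above were chosen after their values were seen, for their small p. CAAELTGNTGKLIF, the same V-J pair with leucine in place of isoleucine at position 5, went from 0.363% ± 0.121 in wt to 0.124% ± 0.0375 in Il2null (log2 fold change -1.54). TRAV4D-4 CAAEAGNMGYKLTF TRAJ9 went from 0.520% ± 0.186 to 0.188% ± 0.0719 (-1.48). TRAV6D-7 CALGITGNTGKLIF TRAJ37 went from 3, 7, 0 and 8 UMIs to 20, 13, 42 and 14 (2.93), and shares every residue from position 5 on with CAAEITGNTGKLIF. Each of the 3 had an adjusted p of 0.195 (edgeR) and groups without overlap.

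The most frequent clonotypes did not pass either. TRAV10 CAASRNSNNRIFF TRAJ31, the largest of all, took 1.83% ± 0.553 in wt and 2.41% ± 1.04 in Il2null (adjusted p = 0.803, edgeR), and the highest of its 8 values was the 3.92% of Il2null 1. TRAV7-2 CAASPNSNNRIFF TRAJ31 took 0.570% ± 0.189 and 0.982% ± 0.208 (log2 fold change 0.78, adjusted p = 0.395, edgeR), and a TRAV16 TRAJ12 clonotype of 15 residues 1.02% and 1.19%.

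At an equal depth of 7293 UMIs, 13.5 clonotypes were expected in all 4 wt and in no Il2null library, and 7.91 in all 4 Il2null and in no wt library. At full depth, with wt the deeper libraries, these numbers were 36 and 4. The largest of the 36 were TRAV4N-3 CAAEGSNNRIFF TRAJ31 (3, 14, 12 and 1 UMIs), TRAV4D-4 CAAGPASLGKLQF TRAJ24 (7, 8, 3 and 7), TRAV7-2 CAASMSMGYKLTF TRAJ9 (9, 6, 7 and 2) and TRAV4D-3 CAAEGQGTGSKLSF TRAJ58 (2, 12, 5 and 4). The 4 of the reverse kind were TRAV4-2 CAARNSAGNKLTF TRAJ17 (5, 3, 6 and 5 UMIs), TRAV16N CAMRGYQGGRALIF TRAJ15 (3, 3, 8 and 2), TRAV6-2 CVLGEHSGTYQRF TRAJ13 (1, 1, 3 and 5) and a TRAV6D-6 TRAJ16 clonotype of 15 residues (2, 2, 4 and 1). They were chosen by their presence and are given without a test, and most of their values are near the 3 UMIs below which absence says nothing.

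Over the centre of the CDR3, with the first 3 and last 3 residues left out, glutamate was less frequent in Il2null and arginine more frequent. This centre starts at position 4, so its glutamate includes that of position 4 described above and is not a separate result. Glutamate made up 2.92%, 2.78%, 2.84% and 2.61% of central residues in wt and 2.17%, 2.40%, 2.24% and 2.07% in Il2null. Arginine made up 6.28%, 6.64%, 6.47% and 6.42% in wt and 7.54%, 7.32%, 7.10% and 6.83% in Il2null. For both, the groups did not overlap (exact 2-sided Mann-Whitney test, p = 0.0286, the smallest that 4 against 4 mice can give). This was so for 4 of the 20 residues (20%), the others being threonine (6.41% in wt, 6.05% in Il2null) and the rare cysteine (0.0333%, 0.0149%), and after adjustment over 20 residues each exact p was 0.143. No residue thus passed after adjustment.

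The part of the chain that encoded these residues differed. Split by V, J and junction, 9 of the 60 shares did not overlap (15%). V-encoded glutamate, which includes that of position 4, went from 1.86% to 1.28% of central residues, without overlap. Glutamate from the junction (0.763% in wt, 0.749% in Il2null) and from J (0.157%, 0.186%) overlapped. Arginine was higher in Il2null from each origin, by J (3.09% in wt, 3.39% in Il2null), junction (2.53%, 2.77%) and V (0.8291%, 1.038%), and only for the junction did the groups not overlap. J-encoded threonine was lower (5.69%, 5.30%) and V-encoded serine higher (3.47%, 3.97%), both without overlap, while J-encoded serine took 8.67% and 8.21%, with overlap. V-encoded serine also includes position 4, so it is not a separate result. Serine there went from 28.9% to 32.0% over all chains, and outside TRAV4 it took 40.4% and 40.2%, with overlap. The parts of the CDR3 centre from J (75.8% and 75.7%), from V (9.14% and 9.29%) and from the junction (15.1% and 15.0%) were close in both genotypes. Grouped by charge, positive residues were at 15.7% in wt and 16.4% in Il2null and negative ones, again with position 4 included, at 4.56% and 3.92%. These and cysteine were the 3 of 11 summary measures whose groups did not overlap (27.3%; adjusted p = 0.105 each over the 11, exact Mann-Whitney test).

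Other properties of the CDR3 overlapped between the genotypes. Mean length was 13.1 residues in both, hydrophobic residues held 13.7% and 13.8% of central positions, and 2.07 and 2.05 bases lay on average between V and J. Use of the locus from end to end overlapped as well. The mean TRAJ number was 24.03 in wt and 23.29 in Il2null (exact Mann-Whitney test, p = 0.486), the 3′ J segments (TRAJ23 and below) took 54.2% and 56.9% (exact p = 0.2), and the 3′ V segments TRAV16 to TRAV21 4.33% and 5.45% (exact p = 0.343). None of the 5 measures of position had groups without overlap.

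At an equal depth of 7293 UMIs the genotypes held similar numbers of clonotypes, with 3033, 3062, 2280 and 2698 in wt and 2256, 3063, 3219 and 2912 in Il2null. The means of 2768 ± 365 and 2862 ± 423 overlapped (exact 2-sided Mann-Whitney test, p = 0.686). From sequences with at least 3 UMIs the Il2null libraries held fewer, 1065 against 1555 at the lower depth that this left. As that limit takes more from shallower libraries, and the 3 shallowest were Il2null, no p is given for it. Without Il2null 1 and 4 the Il2null mean was 3141 at the equal depth. Clonotypes with 1 UMI, which that limit removes, were 36.3% to 56.7% of those of an Il2null library and 19.2% to 36.3% of those of a wt library.

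The numbers of clonotypes that mice shared did not separate the genotypes at equal depth. Pairs of wt libraries had 823 ± 230 clonotypes in common, pairs of Il2null libraries 753 ± 177 and mixed pairs 723 ± 112. Pairs of 1 genotype thus shared 64.9 more than mixed pairs (exact 1-sided permutation test over the 35 ways to split the libraries, p = 0.229). The highest pairs were wt 3 with wt 4 (1181), wt 1 with wt 2 (1035), Il2null 2 with 3 (1027), wt 4 with Il2null 4 (996) and wt 2 with Il2null 1 (929), all of them among the 8 that had many long junctions in common. From sequences with at least 3 UMIs the difference was 33.9 at a depth of 3671 UMIs (exact p = 0.0286, the smallest the splits can give), with the same unequal effect of the limit. There wt pairs shared 408 clonotypes, Il2null pairs 268 and mixed pairs 304, so only wt pairs lay above mixed ones. With at least 2 UMIs the difference was 51.7 (exact p = 0.0571), again with Il2null pairs (469) below mixed pairs (490). Without Il2null 1 and 4 it was 171.7 (exact p = 0.133 over 15 splits), with 1 Il2null pair left.

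Clonotypes found in every mouse took similar parts of both repertoires. Of the 16684 clonotypes, 9257 (55.5%) were seen in 1 mouse and 279 in all 8, and those 279 held 34.5% ± 1.60 of wt and 34.5% ± 2.16 of Il2null UMIs. Clonotypes seen in more mice had more nucleotide sequences, from a mean of 1.02 for those in 1 mouse to 5.81 for those in all 8. Over the same range, the fewest bases between V and J that any of its sequences needed fell from 3.12 to 0.943. Sequences were pooled over mice at full depth, so clonotypes with more UMIs in more mice collect more of them and have a lower minimum by construction, and these values are a description only.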

How the data were processed

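TCRα cDNA libraries of sorted Treg were made from total RNA with UMIs of 12 random bases. The authors kept reads with quality above 20, built a consensus for each UMI with at least 2 reads in pRESTO, assigned segments with MiXCR and deposited 1 clonotype table per library in VDJtools format. The deposited count column holds whole UMI counts, the deposited fraction column the share of the library, and the V, J, CDR3 and junction position columns are other descriptors. The labels name the mm10 genome.

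In-frame rows without a stop codon were kept (out-of-frame or stop sequences were 3.44% to 5.50% of UMIs), with 7293 to 24811 UMIs per library. Shares were tested with edgeR's quasi-likelihood test, with the logarithm of the library total as offset and Benjamini-Hochberg adjustment within TRAJ, TRAV, V-J pairs and clonotypes. Segments needed 20, pairs 10 and clonotypes 5 UMIs in at least 4 of the 8 libraries, which kept 39 of 43 TRAJ, 68 of 104 TRAV, 299 of 2193 pairs and 452 of 16684 clonotypes. Shares of residues, classes and locus position were compared with exact Mann-Whitney tests, and numbers of clonotypes were brought to equal depth by the hypergeometric expectation. Alternatives were TMM, DESeq2, limma on log2(percent + 0.01), other filters, each clonotype counted once, libraries left out, a replicate block and others given in the closing section. The limit of 3 UMIs, the set without Il2null 1 and 4 and the glutamate position were added after the data were seen.

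Named were the 5 TRAJ and TRAV with the highest share in wt and those past the threshold, then those without overlap up to 6. For pairs the limit was 8. For clonotypes, the 3 highest of each genotype and the 4 highest found in all libraries of 1 genotype and none of the other were named, and for residues and classes those without overlap. Members, lists and tests were chosen with earlier results of these data known.

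Replicate numbers were not taken to pair mice. Deviations of same-numbered libraries from their group means correlated at -0.49, -0.06, 0.10 and 0.44 over TRAJ, and at -0.08, 0.25, -0.10 and -0.04 over TRAV. So few values cannot exclude a pairing. The paper calls the wt mice littermates, and the labels link no mice. Segment names were matched to GENCODE (101 of 104 TRAV and 43 of 43 TRAJ, 97.9% of UMIs). Scripts were tested on simulated data. Python 3.11.15 (numpy 2.4.6, pandas 2.3.3, scipy 1.17.1) and R 4.3.3 (edgeR 4.0.16, limma 3.58.1, DESeq2 1.42.0) were used.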

Additional observations from a re-analysis of the deposited data

Results flagged for a closer look

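Of 152 groups of 4 libraries examined, 7 held 1 library whose distance from the nearest of the others was large against the range of the group, and chance gives about 1 in 20. Among TRAJ, Il2null 1 had 1.99% of TRAJ32 where the other Il2null libraries had 1.63% to 1.65%, and Il2null 3 had 0.598% of TRAJ24 where the others had 0.749% to 0.754%. Among TRAV, wt 3 had 21.4% of TRAV4D-3 (others 17.7% to 18.1%) and wt 4 had 6.48% of TRAV4D-4 (others 7.34% to 7.49%). For the pair TRAV7D-6 TRAJ31, wt 3 had 0 UMIs and a share of 0 (others 0.0479% to 0.0524%). For TRAV4D-3 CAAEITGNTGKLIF TRAJ37, wt 3 had 1.82% (others 0.965% to 1.08%). The 5′ TRAJ took 5.12% in wt 2 and 4.18% to 4.32% in the other wt libraries. In 3 of the 7, the library that stood apart was wt 3.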

How the results depend on the processing

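Calls are counted at an adjusted p under 0.05, and groups without overlap for residues, classes and locus. For TRAJ (4 calls in the report), limma gave 1, the replicate block 1, counting each clonotype once 0 and the limit of 3 UMIs 0. Leaving out 1 library gave 0 to 7, with 0 without wt 3, Il2null 2 or Il2null 3 and 7 without Il2null 1. For TRAV (1 call), TMM gave 3, DESeq2 2, limma 0, a fit over all 12 libraries 2, keeping out-of-frame sequences 2, each clonotype once 0, merged copies 8, the limit of 3 UMIs 2 and leaving out Il2null 1 and 4 6, of which 5 were higher; leaving out 1 library gave 1 to 5. For V-J pairs (2 calls), DESeq2 gave 5, limma 0, the replicate block 0, downsampling 1, the limit of 3 UMIs 0 and leaving out Il2null 1 and 4 0. Leaving out 1 library gave 0 to 8, with 8 without Il2null 1 and 0 without Il2null 4. For clonotypes (0 calls), DESeq2 gave 6, no filter 2, all 12 libraries 1, downsampling 5, merged copies 1 and leaving out 1 library 0 to 1. DESeq2 gave no adjusted p for 93 pairs and 254 clonotypes. For central residues (4 without overlap), each clonotype once gave 2, standardising to 1 TRAV usage 2, leaving out Il2null 1 and 4 8 and leaving out 1 library 4 to 7. For classes (3), standardising to 1 TRAJ usage gave 5 and leaving out any 1 library 3. For the locus (0), leaving out Il2null 1 and 4 gave 3 and leaving out 1 library 0 to 2. The Il2null minus wt difference in clonotypes at equal depth was -490 under the limit of 3 UMIs and -68.7 to 296 when 1 library was left out. The sharing difference was 33.9 under that limit and 25.7 (without wt 3) to 135 (without Il2null 1) when 1 library was left out, and 171.7 without both Il2null 1 and 4. Directions reversed for threonine over the whole CDR3 (0.0304 percentage points) and for glutamate at position 4 outside TRAV4 without Il2null 1 and 4 (0.518 percentage points). The cause was not tested for any of these.

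The deposited libraries limit the depth to 7293 UMIs in the shallowest mouse, so differences in clonotypes under about 0.0411% were not detectable there. The libraries share sequences, so their p-values do not rest on 8 independent samples. TRAV4D-3 passed in 17 of 19 alternatives and TRAV4D-3 with TRAJ37 in 13 of 19.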
